A study of Mus musculus with 6 samples.

Results

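The 33 genes described here bring pyruvate into mitochondria and carry its carbon through the citric acid cycle, and they were measured in mouse hearts without Cav1 and in wild-type hearts. They were listed by name for their role, with earlier results of these data known. A probe set, the group of short probes on the array that reports 1 stretch of transcript, was taken where the array annotation gives it exactly 1 symbol and that symbol is on the list. This held for 70 probe sets of 32 genes, out of 18193 genes so represented on the array. Mpc2, a subunit of the mitochondrial pyruvate carrier, was not analysed here.

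Heart RNA of male mice was hybridised to Affymetrix arrays for mouse, with 1 array for each sample, and a sample is called a heart below. The Cav1KO group (n = 3) carries a knockout of Cav1, the gene of caveolin-1, a coat protein of the membrane pits called caveolae, and the WT group (n = 3) is wild type. Both groups were 5 to 6 months old and had fasted for 6 hours. The strain, the deleted stretch and whether the knockout is limited to a cell type are not given in the sources used here, and p-values measure only the spread between these samples. Intensities were quantile normalised between arrays, and fold changes are Cav1KO minus WT on the scale of log2(normalised intensity + 16), which understates the change of dim genes. Probe sets in the upper 50% by mean were tested with limma over 22519 probe sets, and a gene is said to rise or fall at a Benjamini-Hochberg adjusted p under 0.05. In this fit the variance of each probe set is drawn towards a trend over all probe sets tested. Its SE, interval and p-value therefore do not rest on its own spread alone. The Cav1 probe set read 118, 101 and 101 in Cav1KO hearts, against 3853, 3836 and 4216 in WT hearts (log2 fold change -5.02), low in all hearts labelled Cav1KO and high in all labelled WT.

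As background, pyruvate from glucose or lactate enters the mitochondrion through the carrier made of Mpc1 and Mpc2, and the pyruvate dehydrogenase complex turns it into acetyl-CoA. The kinases Pdk1 to Pdk4 switch that complex off by phosphorylation and the phosphatases Pdp1 and Pdp2 switch it back on. The citric acid cycle oxidises acetyl-CoA and feeds the respiration on which the beating heart depends, while pyruvate carboxylase, malic enzymes, transaminases and glutamate dehydrogenase add or withdraw its intermediates.

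Most of these genes lay slightly lower in Cav1KO hearts, and few passed the test. Each gene was counted once, at its brightest probe set by mean over the 6 hearts, and that probe set was tested for all 32 genes. Of them 2 fell (Pdk2 and Dlst), 0 rose and 30 did not pass. The share that fell was 6.25%, against 1.05% lower and 2.97% higher among all 11486 genes tested. The median log2 fold change was -0.067, beside -0.014 for all genes tested, with a range of -0.33 to 0.17. Below 0 lay 25 of the 32 genes (78.1%, against 54.2% of all genes tested). The calls depended on the normalisation and on single hearts: with the intensities as deposited 0 of the 32 genes fell and 26 lay below 0, and without single hearts 0 to 1 fell. Over all probe sets tested, 58 fell and 577 rose as deposited, against 183 and 531 after quantile normalisation.

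At an unadjusted p under 0.05, 12 genes were lower (37.5%, against 11.0% of all genes tested) and 1 was higher (11.1% of all genes tested). Each Cav1KO heart lay below each WT heart in 13 genes (40.6%, against 15.2% of all genes tested), and above in 1, Me2 (13.4% of all genes tested). The 95% interval of the difference lay within 1.25-fold in both directions for 26 genes, and reached beyond it for Pdk2, Pdk4, Pdp1, Pdp2, Pcx and Me2. Across the list, the median deviation from the mean of the 6 hearts was -0.049, -0.027 and -0.038 on the log2 scale in Cav1KO hearts, against 0.033, 0.026 and 0.041 in WT hearts. Genes measured in the same 6 hearts are not independent of each other.

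**Figure D1:**
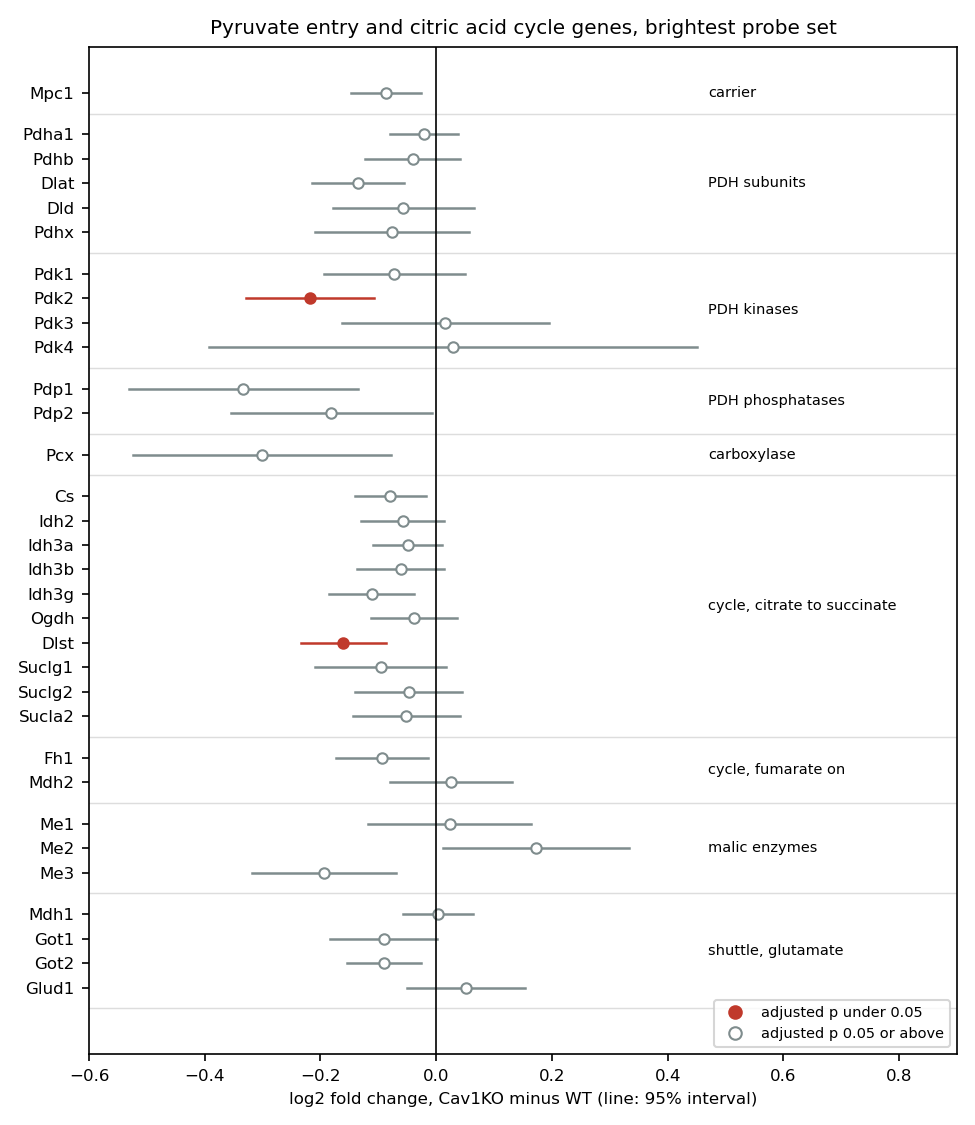
Log2 fold change of the 32 measured genes at their brightest probe set, Cav1KO minus WT, with the 95% interval of each (lines), grouped by role. Filled red points passed at an adjusted p of 0.05 (Pdk2 at -0.22 and Dlst at -0.16), open points did not, and 25 of the 32 points lie left of 0.

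Of the kinases that inactivate pyruvate dehydrogenase, 1 of 4 fell, against 1.05% of all genes tested. Pdk2, a kinase found in most tissues, read 1860, 2015 and 2017 in Cav1KO hearts, against 2226, 2224 and 2411 in WT hearts. The groups did not overlap, and Pdk2 fell by 0.22 on the log2 scale (SE 0.049, 95% interval -0.33 to -0.11, limma adjusted p = 0.0497). That p lies just under the threshold, and Pdk2 passed in 9 of 22 alternative settings. These 9 include 4 other forms of the quantile step, which nearly repeat the main setting (limma adjusted p = 0.0491 to 0.0498). The call was lost when any 1 of the 6 hearts was left out (limma adjusted p = 0.0607 to 0.182) and with the intensities as deposited (0.130). Other settings that lost it include arrays centred on their median (0.203), no filter on dim probe sets (0.0754) and no variance trend (0.126).

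Pdk4, the kinase that fasting induces in muscle, spread widely among Cav1KO hearts. It read 7086, 5855 and 3729 in Cav1KO hearts, against 5017, 5509 and 5267 in WT hearts, so that 2 Cav1KO hearts lay above and 1 below the whole WT range. Its SD was 0.47 on the log2 scale in Cav1KO hearts, the highest of the 32 genes in that group, against 0.067 in WT hearts. The log2 fold change of 0.029 (95% interval -0.39 to 0.45) did not pass (limma adjusted p = 0.943). Its sign rested on single hearts, at 0.29 without Cav1KO replicate 3 (limma adjusted p = 0.103) and -0.17 without Cav1KO replicate 1 (0.651). Pdk1, a kinase that hypoxia induces, stood at -0.072 and Pdk3 at 0.016 at their brightest probe sets, both with overlapping groups (limma adjusted p = 0.468 and 0.924). Dimmer probe sets of Pdk1 stood at -0.085 with overlap and -0.13 without, and neither passed.

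Both phosphatases that reactivate the complex lay lower without passing. Pdp1, the calcium-sensitive one, read 251, 281 and 330 in Cav1KO hearts, against 359, 370 and 365 in WT hearts. The groups did not overlap, and its log2 fold change of -0.33 (SE 0.087), the most negative of the 32 genes, did not pass (limma adjusted p = 0.0823). Pdp1 passed in 1 of 22 alternative settings, without Cav1KO replicate 3 (-0.43, limma adjusted p = 0.0198). Over all single hearts left out it ran from -0.43 to -0.25 (limma adjusted p = 0.0198 to 0.239), and as deposited it stood at -0.26 (0.186). A dimmer probe set of Pdp1 stood at -0.13 with overlapping groups. Pdp2 read 92.0, 109 and 98.7 in Cav1KO hearts, against 116, 121 and 108 in WT hearts, and its overlapping groups gave -0.18 (limma adjusted p = 0.234). Pdpr, the regulatory subunit of the phosphatase and no member of the list, stood at -0.16 at its brightest probe set (limma adjusted p = 0.113). At 1 of its 3 dimmer probe sets Pdpr read 727, 712 and 696 in Cav1KO hearts, against 813, 836 and 813 in WT hearts, and fell by 0.20 (limma adjusted p = 0.0442).

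**Figure D2:**
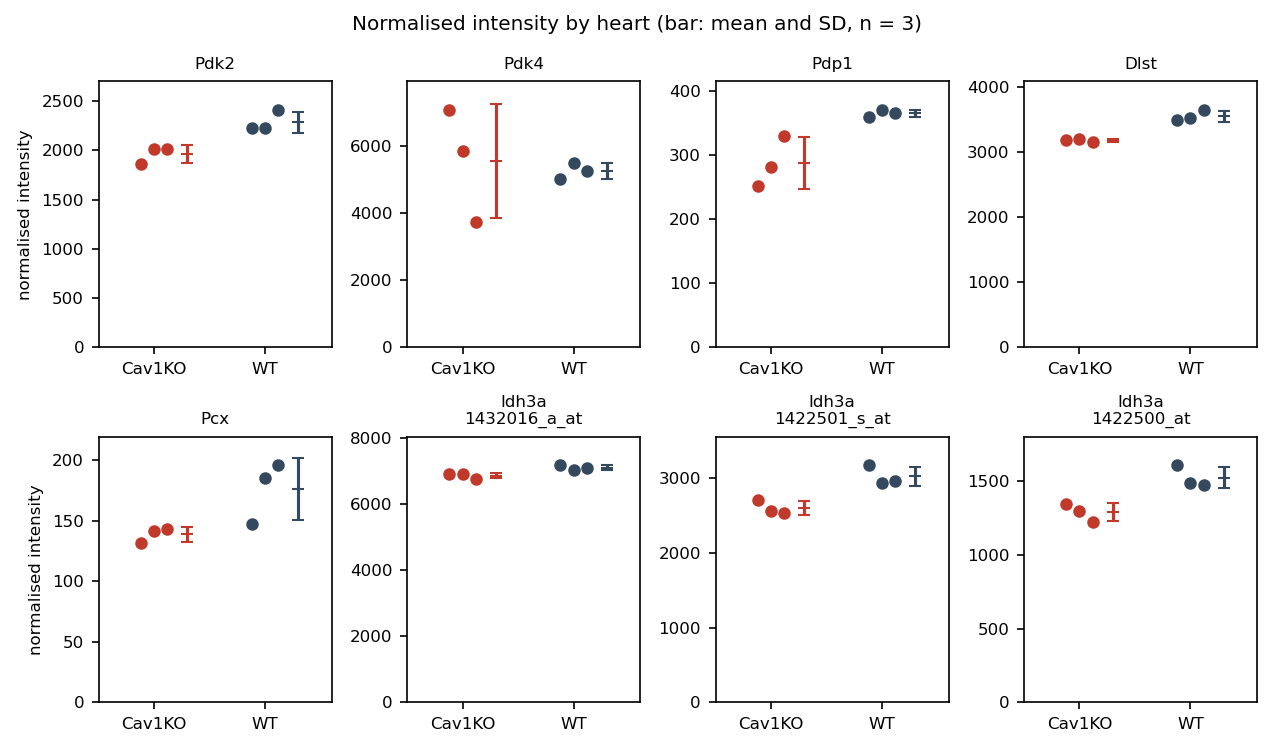
Normalised intensity on a linear axis from 0 for Pdk2, Pdk4, Pdp1, Dlst and Pcx at their brightest probe set and for 3 probe sets of Idh3a, 1 point per heart, Cav1KO in red left of WT in dark blue, with the mean and SD (n = 3) beside the points. Pdk4 spans 3729 to 7086 in Cav1KO hearts and 5017 to 5509 in WT hearts, while Dlst spans 3152 to 3196 in Cav1KO hearts and 3489 to 3649 in WT hearts.

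The carrier and the subunits of the pyruvate dehydrogenase complex lay within a small distance of WT, and none passed. Mpc1, the measured carrier subunit, read 6538, 6603 and 6572 in Cav1KO hearts, against 6923, 7095 and 6923 in WT hearts. The groups did not overlap, at a log2 fold change of -0.087 (SE 0.026, limma adjusted p = 0.121). Dlat, the acetyltransferase core of the complex, read 2249, 2189 and 2152 in Cav1KO hearts, against 2439, 2384 and 2417 in WT hearts at its brightest probe set (-0.13, limma adjusted p = 0.0806). Its other probe sets stood at -0.13 and -0.13, and at none of the 3 did the groups overlap. Pdha1 and Pdhb, the subunits of the decarboxylating enzyme, stood at -0.021 and -0.041 at their brightest probe sets, and at -0.062 and -0.025 at their other ones, with overlap. Dld, the dehydrogenase shared with sister complexes, stood at -0.057, and Pdhx, which binds it to the core, at -0.077. The groups of these 4 genes overlapped (limma adjusted p = 0.480 to 0.678).

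All 10 genes from citrate synthase to succinyl-CoA ligase lay below 0 at their brightest probe set, against 54.2% of all genes tested. Of them 1 fell (10%, against 1.05% of all genes tested). Dlst, the succinyltransferase of the 2-oxoglutarate dehydrogenase complex, read 3186, 3196 and 3152 in Cav1KO hearts, against 3489, 3526 and 3649 in WT hearts. The Cav1KO hearts lay in a narrow range below all WT hearts, and Dlst fell by 0.16 (SE 0.033, 95% interval -0.23 to -0.087, limma adjusted p = 0.0360). Dlst passed in 11 of 22 alternative settings. These 11 include the 4 other forms of the quantile step, which nearly repeat the main setting (limma adjusted p = 0.0351 to 0.0359). The call was lost when any 1 heart was left out (limma adjusted p = 0.0556 to 0.129) and with the intensities as deposited (0.109). Other settings that lost it include arrays centred on their median (0.217), no filter on dim probe sets (0.0604) and no variance trend (0.152). Dimmer probe sets of Dlst stood at -0.16 and 0.018 and did not pass (limma adjusted p = 0.219 and 0.946). Ogdh, the first enzyme of the same complex, read 5314, 5700 and 5498 in Cav1KO hearts, against 5656, 5641 and 5656 in WT hearts, with overlapping groups (-0.038, limma adjusted p = 0.526), and its dimmer probe set stood at -0.0063.

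Idh3a, the catalytic subunit of NAD-dependent isocitrate dehydrogenase, differed in size between its 4 tested probe sets. At the brightest it read 6910, 6910 and 6770 in Cav1KO hearts, against 7178, 7031 and 7095 in WT hearts, and did not pass (-0.049, limma adjusted p = 0.331). At the second in brightness it read 2700, 2560 and 2526 in Cav1KO hearts, against 3170, 2937 and 2963 in WT hearts, and fell by 0.22 (SE 0.043, limma adjusted p = 0.0328). At the third it read 1346, 1293 and 1224 in Cav1KO hearts, against 1606, 1487 and 1472 in WT hearts, and fell by 0.24 (SE 0.052, limma adjusted p = 0.0446). At each of the 4, all Cav1KO hearts lay below all WT hearts, and the dimmest stood at -0.35 (limma adjusted p = 0.0536). With the intensities as deposited neither call held (limma adjusted p = 0.0512 at the second and 0.0832 at the third). Leaving out 1 heart at a time ended the call of the third for all 6 hearts and of the second for 5 of 6, WT replicate 2 being the exception. When the probe sets of a gene were averaged, Idh3a fell by 0.21 (limma adjusted p = 0.0331), while Dlst stood at -0.094 and did not pass (0.384). Over all probe sets of the listed genes, 4 of 59 fell and 0 rose, against 0.813% lower and 2.36% higher over all probe sets tested.

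The other cycle genes did not pass. Cs, citrate synthase, read 7629, 7601 and 7498 in Cav1KO hearts, against 7893, 7947 and 8184 in WT hearts, and the groups did not overlap at any of its 3 probe sets, which stood at -0.080, -0.081 and -0.13 (limma adjusted p = 0.0642 for the dimmest). Idh3g, a regulatory subunit beside Idh3a, read 5731, 5742 and 5720 in Cav1KO hearts, against 6453, 6027 and 6109 in WT hearts (-0.11, limma adjusted p = 0.111), and stood at -0.035 with overlapping groups at a dimmer probe set. Idh3b, its partner, stood at -0.061 at its brightest probe set, with no overlap, and at -0.10 and -0.13 at dimmer ones, with overlap. Idh2, the NADP-dependent mitochondrial enzyme, stood at -0.058 and -0.041 at its 2 tested probe sets, both with overlap. The succinyl-CoA ligase subunits Suclg1, Suclg2 and Sucla2 stood at -0.10, -0.047 and -0.052, all with overlapping groups, and a dimmer probe set of Suclg2 stood above 0, at 0.090, also with overlap. Fh1, fumarase, read 4452, 4527 and 4595 in Cav1KO hearts, against 4707, 4752 and 5035 in WT hearts (-0.094, limma adjusted p = 0.188). Mdh2, mitochondrial malate dehydrogenase, stood at 0.026 at its brightest probe set and -0.039 at the other, and neither passed.

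**Figure D3:**
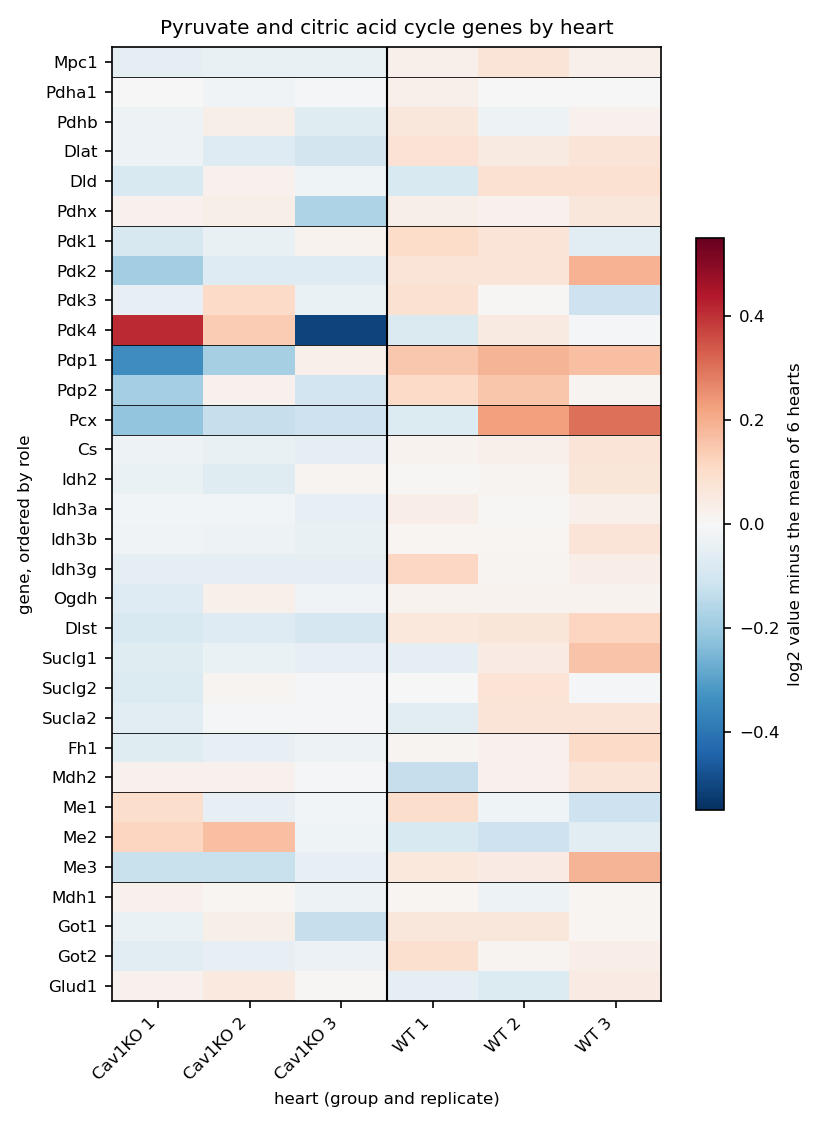
Log2 value of each of the 32 genes at its brightest probe set in each heart, minus the mean of the 6 hearts (red higher, blue lower), genes in order of role and Cav1KO hearts left of WT hearts. Pdk4 is the row with the widest spread among Cav1KO hearts (SD 0.47), and the rows of Pdk2, Dlst, Pcx and Me3 are blue in all Cav1KO hearts.

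The malic enzymes, which interconvert malate and pyruvate, did not move one way. Me3, a mitochondrial NADP-dependent form, read 519, 517 and 548 in Cav1KO hearts, against 590, 586 and 644 in WT hearts (-0.19, SE 0.055, limma adjusted p = 0.104). Me2, the mitochondrial NAD-dependent form, read 94.9, 98.2 and 84.7 in Cav1KO hearts, against 80.5, 78.4 and 81.9 in WT hearts (0.17, SE 0.071, limma adjusted p = 0.222). Neither had overlapping groups and neither passed, and the difference between them was not tested. Me1, the cytosolic form, stood at 0.023 and 0.021 at its 2 tested probe sets, with overlapping groups.

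Of the genes that exchange malate, aspartate and glutamate with the cycle, 0 of 4 passed. Mdh1, cytosolic malate dehydrogenase, read 11927, 11849 and 11478 in Cav1KO hearts, against 11849, 11478 and 11849 in WT hearts (0.0031, 95% interval -0.058 to 0.064), and its dimmer probe sets ran from -0.18 to 0.081 with overlapping groups. Got1, the cytosolic aspartate transaminase, stood at -0.090 and Glud1, glutamate dehydrogenase, at 0.052, both with overlapping groups, and a dimmer probe set of Glud1 stood at 0.023. Got2, the mitochondrial transaminase, read 7784, 7920 and 7947 in Cav1KO hearts, against 8620, 8232 and 8322 in WT hearts (-0.090, limma adjusted p = 0.131). Its other tested probe set stood at -0.14 (limma adjusted p = 0.0924), also with no overlap.

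Pyruvate carboxylase, which makes oxaloacetate from pyruvate, lay lower at each of its probe sets. Pcx read 132, 142 and 143 in Cav1KO hearts, against 147, 185 and 196 in WT hearts, with no overlap (-0.30, SE 0.098, limma adjusted p = 0.143). WT replicate 1 lay close to the Cav1KO hearts. Pcx passed in 2 of 21 alternative settings that tested it, without that heart (-0.42, limma adjusted p = 0.0238) and with array weights (-0.38, 0.0300). Over all single hearts left out it ran from -0.42 to -0.22 (limma adjusted p = 0.0238 to 0.380), and as deposited it stood at -0.24 (0.293). The array also carries 4 control probe sets for mouse pyruvate carboxylase, placed from the 3' to the 5' end, which the main test leaves out. The 3' control read 216, 220 and 229 in Cav1KO hearts, against 273, 265 and 300 in WT hearts, and in a fit that kept the controls it fell by 0.31 (SE 0.063, limma adjusted p = 0.0362). The controls named MA, MB and 5' stood at -0.24, -0.30 and -0.15 with no overlap and did not pass (limma adjusted p = 0.176, 0.0883 and 0.272). The 3' minus 5' difference of these controls is a measure used to follow RNA quality. On the log2 scale it was 1.51, 1.44 and 1.45 in Cav1KO hearts, against 1.53, 1.63 and 1.73 in WT hearts. All Cav1KO hearts lay below all WT hearts, but this order depended on the constant added to the intensities. Without it, the 3' to 5' ratio was higher in Cav1KO replicate 1 (216 to 65.2) than in WT replicate 1 (273 to 84.1). The other Cav1KO hearts stayed below all WT hearts. The measure also uses the 3' control that fell. For beta-actin the same difference was 0.58, 0.57 and 0.63 in Cav1KO hearts, against 0.54, 0.63 and 0.60 in WT hearts, with overlapping groups. The part of this measure in the pyruvate carboxylase values was not tested.

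Markers of fat cells differed between hearts as well. The summed normalised intensity of 10 adipocyte markers was 2127, 1976 and 3176 in Cav1KO hearts, against 2858, 4281 and 7068 in WT hearts. All 8 tested markers lay below 0 (54.2% of all genes tested) and 1, Slc36a2, fell (1.05% of all genes tested). Cidec and Lep were too dim to be tested, and no marker was at 0. Ucp1, the uncoupling protein of brown fat, had log2 values of 5.20, 5.20 and 6.93 in Cav1KO hearts, against 6.63, 8.37 and 9.68 in WT hearts. Of the 32 pathway genes, 2, 4 and 0 were highest in Cav1KO replicates 1, 2 and 3, against 9, 6 and 11 in WT replicates 1, 2 and 3. The same count was not made over all genes tested, so whether these numbers are unusual is unknown. Pdk2, Dlst and Pcx were highest in WT replicate 3, the heart with the highest adipocyte sum, whereas both called probe sets of Idh3a and Gpt were highest in WT replicate 1 and Pdp1 in WT replicate 2. Without WT replicate 3 Dlst stood at -0.14 (limma adjusted p = 0.111), Pdk2 at -0.18 (0.137) and Pcx at -0.22 (0.317). Cav1KO replicate 3 and WT replicate 1 had adipocyte sums of 3176 and 2858. In that pair of hearts Dlst read 3152 in Cav1KO and 3489 in WT, Pdk2 read 2017 and 2226, and Pcx read 143 and 147. A single pair chosen after values were seen is a description only. The part of fat cells in the values of the pathway genes was not tested.

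Other cell type markers were set beside these values. The 14 cardiomyocyte markers summed to 215461 to 219105 in Cav1KO hearts, against 216773 to 218057 in WT hearts, and 0 passed (limma). Several stand near the top of the array scale: the lowest deposited Myl2 intensity was 21908, and the highest intensity of an array lay between 21908 and 22630. The 10 endothelial markers summed to 6233 to 7273 in Cav1KO hearts, against 5177 to 5400 in WT hearts. Of these 10, 5 were higher, and Kdr lay below 0 without passing (-0.039, limma adjusted p = 0.803). The 11 macrophage markers summed to 6736 to 7107 in Cav1KO hearts, against 5202 to 5828 in WT hearts, with 7 higher. The 9 fibroblast markers summed to 16023 to 19345 in Cav1KO hearts, against 13606 to 15476 in WT hearts, with 3 higher. Among all genes tested, 2.97% were higher at the same threshold. Of 4 smooth muscle and 4 atrial markers 0 passed. None of these markers was at 0, and their part in the values of the pathway genes was not tested. In RNA of whole tissue, fewer cells of a type and less RNA per cell cannot be told apart.

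**Figure D4:**
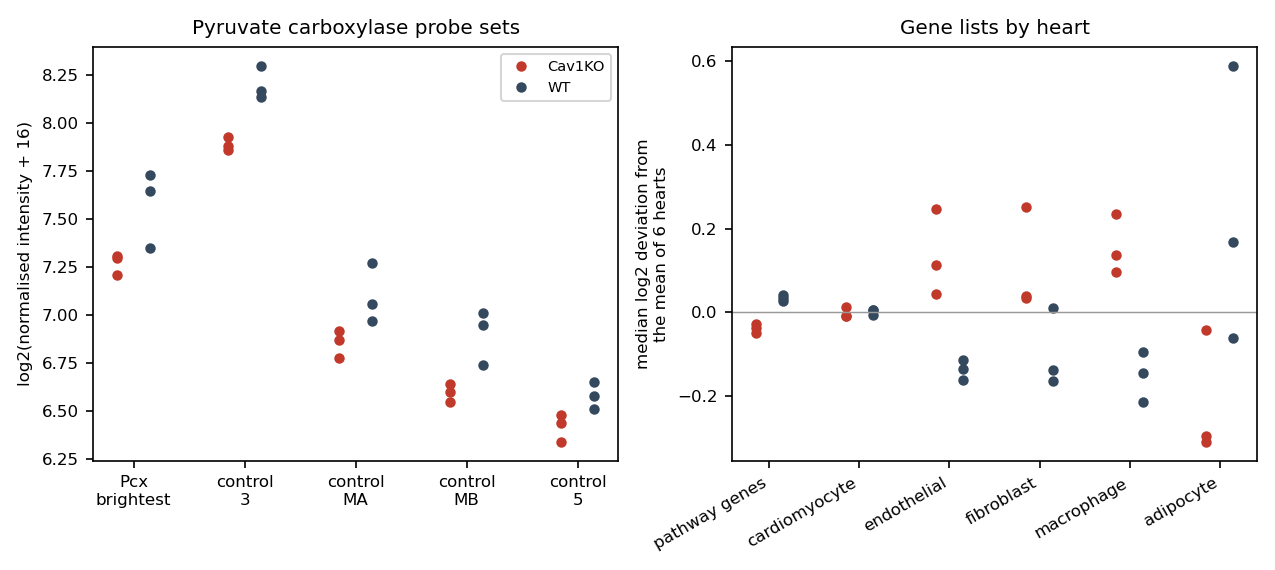
Left, log2(normalised intensity + 16) of the brightest Pcx probe set and of the 4 control probe sets for pyruvate carboxylase (3, MA, MB and 5), 1 point per heart, Cav1KO in red left of WT in dark blue. Right, median log2 deviation from the mean of 6 hearts for the 32 pathway genes and 5 marker lists, where the pathway genes lie between -0.049 and -0.027 in Cav1KO hearts and between 0.026 and 0.041 in WT hearts.

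Neighbouring genes of the pathway were read from a list of 49, of which 44 had a probe set and 42 were tested. Of these 2 fell (Gpt and Bckdhb), 0 rose and 40 did not pass, against 1.05% lower and 2.97% higher among all genes tested. Their median log2 fold change was -0.12, beside -0.014 for all genes tested. Below 0 lay 36 (85.7%, against 54.2% of all genes tested) and above 0 lay 6. Those above were 3 of 8 cytosolic isoforms and branch enzymes, 2 of 8 branched-chain and ketone genes and 1 of 4 lactate genes. Genes were named by smallest p, so most of those above 0 are not named. Gpt, an alanine transaminase that makes pyruvate from alanine, read 416, 436 and 470 in Cav1KO hearts, against 655, 618 and 604 in WT hearts. It fell by 0.49 (SE 0.060, limma adjusted p = 0.00421), and passed under each of the 22 alternative settings, at 0.00254 to 0.0288. A dimmer probe set of Gpt stood at -0.24 and did not pass (limma adjusted p = 0.112).

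Bckdhb, a subunit of the branched-chain keto acid dehydrogenase, which shares Dld with pyruvate dehydrogenase, read 1011, 1061 and 983 in Cav1KO hearts, against 1190, 1274 and 1351 in WT hearts, and fell by 0.31 (SE 0.056, limma adjusted p = 0.0212). The call was lost with the intensities as deposited (0.104), with arrays centred on their median (0.156), without a variance trend (0.0573) and when any Cav1KO heart or WT replicate 3 was left out (limma adjusted p = 0.0996, 0.0544, 0.0587 and 0.0708). Dbt, the core of the same complex, stood at -0.26 and Bckdk, the kinase that switches it off, at -0.15, and neither passed (limma adjusted p = 0.0596 and 0.148).

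None of the 8 tested genes of aconitase, succinate dehydrogenase and its assembly passed. All 8 lay below 0, against 54.2% of all genes tested. The smallest p were at the assembly factor Sdhaf4 (-0.17, limma adjusted p = 0.0855), the membrane anchor Sdhd (-0.11, 0.102) and the assembly factor Sdhaf2 (-0.12, 0.194). Ldhb, the lactate dehydrogenase subunit abundant in heart, read 8232, 8214 and 7992 in Cav1KO hearts, against 8747, 8702 and 9028 in WT hearts (-0.12, limma adjusted p = 0.0649). Ldhd, a D-lactate dehydrogenase, stood at -0.21 (limma adjusted p = 0.0835), while Ldha, the lactate dehydrogenase subunit abundant in skeletal muscle, stood at 0.067 (0.239), with each Cav1KO heart above each WT heart. The carriers Slc25a11, which exchanges malate for 2-oxoglutarate, and Slc25a12, which exports aspartate, stood at -0.15 and -0.14 (limma adjusted p = 0.0734 and 0.0867), and Slc25a13, a second aspartate carrier, at -0.15 (0.136). Lias and Lipt1, which make and transfer the lipoate of these complexes, stood at -0.13 and -0.089 (limma adjusted p = 0.138 and 0.458). Of the enzymes that bring propionate to succinyl-CoA, the carboxylase subunits Pccb and Pcca stood at -0.17 and -0.14 (limma adjusted p = 0.141 and 0.183) and the epimerase Mcee at -0.095 (0.412). Idh1, the cytosolic isocitrate dehydrogenase, stood at -0.17 with overlapping groups (limma adjusted p = 0.154). None of these genes passed. Pck1, the cytosolic enzyme that makes phosphoenolpyruvate from oxaloacetate and is also found in fat, read 44.7, 44.0 and 84.2 in Cav1KO hearts, against 80.0, 237 and 385 in WT hearts (-1.58, limma adjusted p = 0.0980). Its groups overlapped, and its highest heart, WT replicate 3, was also the one with the highest adipocyte sum.

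The promoters of Pdk2 and Dlst are printed because these 2 genes fell at their brightest probe set. The sequences are RefSeq's on build GRCm38.p6, from 250 bases before to 50 bases after the annotated start, 5' to 3' on the gene's strand. Pdk2 lies at chr11:95041322-95041621 (minus strand), the one of its 2 windows that holds the motif marked, and Dlst at chr12:85110583-85110882 (plus strand). Capitals mark an E-box, CACGTG, in Pdk2 at bases 125 to 130 of the window, and CTTCCGG, the reverse complement of the ETS site CCGGAAG, in Dlst at bases 252 to 258. Both motifs were chosen for display after their matches were seen, from 9 motifs searched on both strands.
Pdk2: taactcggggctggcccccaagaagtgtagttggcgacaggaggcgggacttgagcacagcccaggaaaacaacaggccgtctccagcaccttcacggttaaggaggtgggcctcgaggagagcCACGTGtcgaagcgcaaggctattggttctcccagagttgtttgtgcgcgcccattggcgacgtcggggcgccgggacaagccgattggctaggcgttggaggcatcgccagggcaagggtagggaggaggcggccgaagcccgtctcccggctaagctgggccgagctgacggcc
Dlst: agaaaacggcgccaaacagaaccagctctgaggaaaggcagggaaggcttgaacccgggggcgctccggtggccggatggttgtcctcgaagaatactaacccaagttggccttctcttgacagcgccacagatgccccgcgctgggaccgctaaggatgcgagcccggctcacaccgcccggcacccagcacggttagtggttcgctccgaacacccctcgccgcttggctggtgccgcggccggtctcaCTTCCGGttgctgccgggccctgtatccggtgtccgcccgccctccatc

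In the RefSeq table, 40 of 32851 promoter windows belong to 30 of the 33 listed genes. The E-box was in 6 of the 40, of 4 genes (7.15% of all windows), and the ETS site in 5, of 5 genes (8.86%). The NRF1 core GCATGCGC was in 3, of 2 genes (2.71% of all windows). The cAMP response element TGACGTCA was in 4, of 2 genes (1.79%), and the nuclear receptor element AAGGTCA in 2, of 2 genes (4.72%). In 0 of the 40 were the ERR element TCAAGGTCA (0.423% of all windows), the forkhead site TGTTTAC (3.65%), a longer NRF1 palindrome (0.971%) and a YY1 site (0.633%). The ERR element contains the nuclear receptor element and the palindrome contains the NRF1 core, windows of a gene can overlap, and a match describes letters only.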

How the data were processed

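Biotin-labelled RNA was made from 2 ug of total RNA with the Affymetrix One-Cycle kit, per the labels' protocols. The values the authors deposited are linear intensities, 1 per probe set and array. The submitters' processing notes name GCOS 1.4 without a role, and the authors' summarisation, background correction and scaling are not given in the sources used here. Here the 64 AFFX controls were left out, and the other 45037 probe sets were quantile normalised, since trimmed means of the arrays differed by 8.42%. Most of that difference came from 1 array, WT replicate 1, at 154.61, against 163.14 to 167.62 for the other hearts. The upper 50% by mean log2(intensity + 16) were fitted with limma 3.58.1 in R 4.3.3 (lmFit, eBayes with a trend, no covariate, two-sided). Summed intensities ran from 11736722 to 12397257 per array, and the number of arrays limits the precision. Values of the AFFX pyruvate carboxylase controls come from a normalisation and fit that kept the controls. Symbols came from the platform annotation of 2016. The fit was tested on simulated data.

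Named are all listed genes, the neighbouring genes that passed or are among the 3 with the smallest p in their sublist, Cav1 and cell type markers. The genes and lists were chosen with earlier results of these data known. The form of the quantile step was settled after 5 forms had been run, for matching the count of an earlier analysis. The 1.25-fold bound (a bound of 0.2 on the log2 scale holds 21 of 32 intervals), the promoter motifs shown, the genes plotted by heart and the pair of hearts with like adipocyte sums were chosen after values were seen. Alternatives were the intensities as deposited, median centring, other pseudocounts, filters and variance models, array weights, averaged probe sets, controls kept, each heart left out, and the other forms of the quantile step.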

Additional observations from a re-analysis of the deposited data

How the results depend on the processing

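Over 22 alternatives, 4 of them added after seeing the data (other forms of the quantile step), the median log2 fold change of the pathway genes stayed below that of all genes tested, with a difference of -0.087 to -0.041, and 0 of them rose. Under the 4 added forms Dlst and Pdk2 passed as in the main setting. The number that fell, 2 in the main setting, was 0 as deposited, median centred, without a filter and without a trend. It was 1 with a pseudocount of 64, with the upper 75% tested and with controls kept, 4 with array weights, and 0 to 1 without single hearts. Their median was -0.053 as deposited, -0.034 median centred and -0.077 to -0.054 without single hearts. Of their probe sets, 4 in the main setting, 0 fell as deposited, median centred and without a trend, 1 without a filter, 2 with the upper 75%, 9 with array weights, and 0 to 2 without single hearts. Neighbouring genes that fell, 2 in the main setting, numbered 1 median centred and without a trend, 5 with the upper 25% and with array weights, 6 with averaged probe sets, and 1 to 3 without single hearts. Over the array 183 probe sets fell and 531 rose. As deposited 58 fell and 577 rose, median centred 41 and 585, and without a trend 73 and 338. Without a filter 103 fell, with array weights 394. Without single hearts 35 to 197 fell and 154 to 552 rose: 35 and 154 without Cav1KO replicate 1, 41 and 186 without Cav1KO replicate 2, 61 and 238 without WT replicate 3, and 108 fell without WT replicate 1.

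Signs turned in genes near 0 that did not pass. Mdh1 stood at -0.0071 as deposited and -0.028 with averaged probe sets, Mdh2 at -0.014 with array weights and -0.0069 with averaged probe sets, and Suclg2 at 0.0086 median centred and 0.022 with averaged probe sets. Without single hearts Mdh1 ran from -0.013 to 0.022, Mdh2 from -0.031 to 0.063, Me1 from -0.026 to 0.080, Pdk3 from -0.037 to 0.065 and Pdk4 from -0.17 to 0.29. The cause of these changes was not tested. No paired analysis was possible because the titles of the Cav1KO hearts carry no replicate numbers shared with WT. The table used here holds no detection calls, so signal over background of dim genes is unknown.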
